A study of Mus musculus with 19 samples.

Results

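The 8 genes described here encode the receptors through which a mammary gland reads ovarian, adrenal and pituitary hormones, together with their nearest targets. They are the estrogen receptor alpha gene Esr1, the progesterone receptor gene Pgr, the prolactin receptor gene Prlr, the glucocorticoid receptor gene Nr3c1, the estrogen-induced gene Greb1, the RANK ligand gene Tnfsf11, and the prolactin-activated transcription factor genes Stat5a and Stat5b. They were taken by symbol from a table of 46078 genes measured by RNA sequencing in 19 mouse libraries, and all 8 had a row.

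The study asks how a p53 mutation in fibroblasts, not in the epithelium, alters mammary tumors driven by ERBB2. MG WT denotes mammary glands of age-matched wild-type mice (n = 3). MG N (n = 4) and MG NP (n = 4) are glands free of malignant lesions from tumor-bearing mice, and T N (n = 4) and T NP (n = 4) are mammary tumors, all from females of a mixed FVB/C57/BALB/c background. Every mouse outside MG WT carried MMTV-neu, a transgene that drives ERBB2 (neu) in mammary epithelium. MG NP and T NP also carried the conditional allele p53wm-R172H/+ and Fsp-Cre, a Cre transgene active in fibroblasts, so that the mutant protein is made where Cre acts. In T N all 4 mice had Fsp-Cre without the p53 allele, whereas in MG N 1 mouse had Fsp-Cre and the other 3 had the p53 allele without Cre. The ages are not in the labels, and T NP replicates 1 and 2 bear the same animal number in their library names, so that they may come from 1 mouse.

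In the mammary epithelium, Esr1 and Pgr are made by a subset of luminal cells that sense the hormones and pass the signal to their neighbours. Estrogen receptor alpha induces Pgr and Greb1, and progesterone induces RANK ligand, which acts on neighbouring cells through its receptor RANK, encoded by Tnfrsf11a. The prolactin receptor signals through the kinase JAK2 to STAT5A and STAT5B, which switch on milk protein genes, and the glucocorticoid receptor, present in most cell types, acts with STAT5 in lactation.

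Values are normalized counts, that is reads on a gene divided by the library's size factor, and differences are log2 fold changes of (normalized count + 1), which understate the change of low genes. A gene was called higher or lower at a Benjamini-Hochberg adjusted p under 0.05 (limma, over all genes tested) with at least a 2-fold difference. Gene-assigned reads came to 54677315 to 62645459 in MG WT and to 20899152 to 27262440 in the other 16 libraries. The groups held different tissue mixtures: 9 white adipocyte genes took 0.0142% to 0.0204% of reads in MG WT against 1.21% to 1.7% in MG N, 0.481% to 1.12% in MG NP and at most 0.0333% in tumors. The mean log2 level of 9 luminal keratin, claudin and adhesion genes, called the luminal score here, was 12.87 to 13.14 in MG WT, 9.99 to 11.02 in MG N, 9.26 to 11.01 in MG NP, 11.83 to 12.67 in T N and 12.13 to 12.69 in T NP. Basal and myoepithelial genes were lowest in tumors, with a score of 5.24 to 7.49 against 9.52 to 12.85 in the glands. In MG NP, 12 skeletal muscle genes took 1.75%, 8.66%, 0.0522% and 4.73% of reads in replicates 1 to 4, against at most 0.112% in any library of another group. In such bulk tissue, fewer cells of a type cannot be told apart from less RNA per cell.

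**Figure D1:**
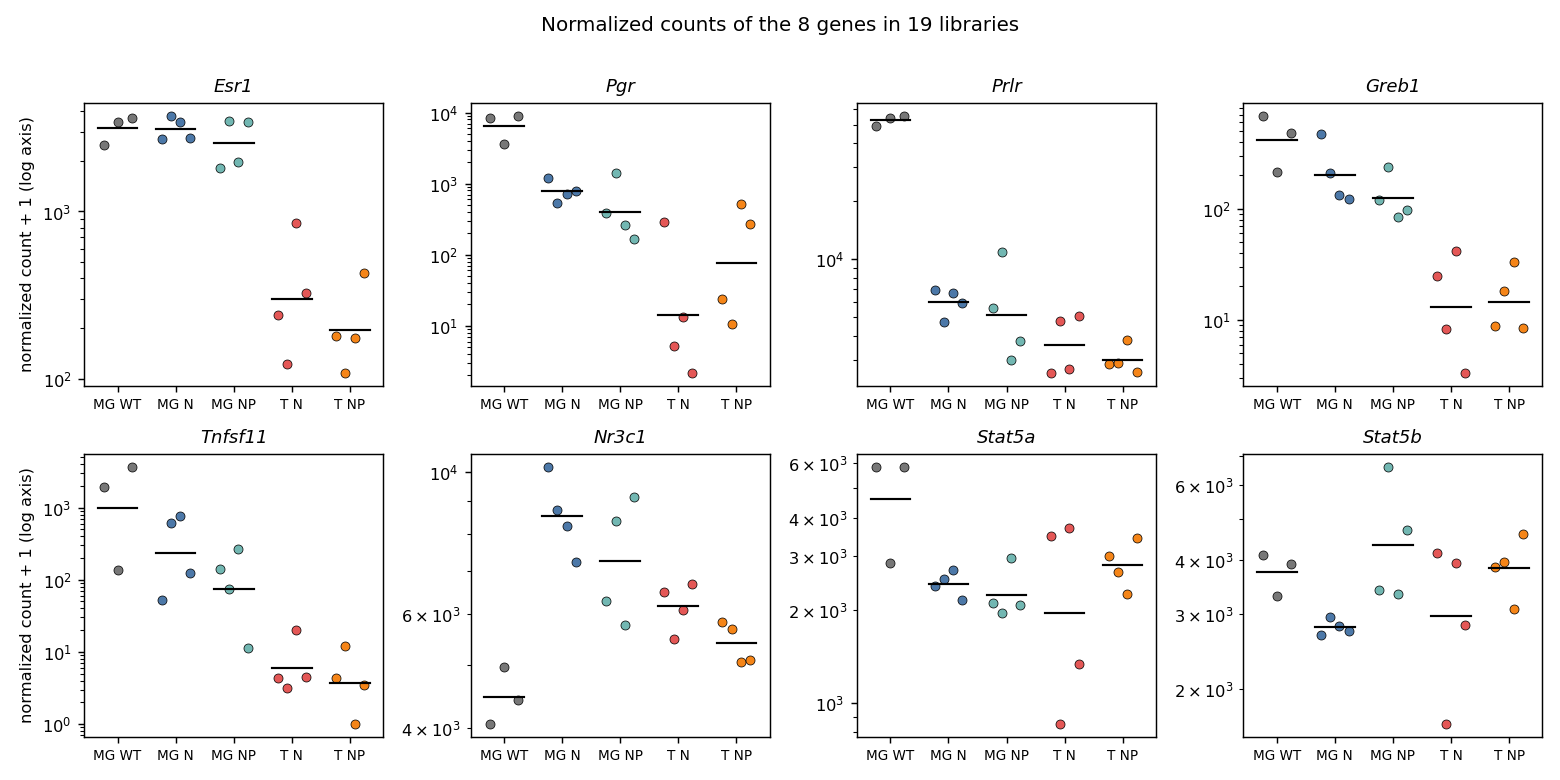
Normalized count + 1 (log axis) of the 8 genes in each of the 19 libraries, by group; points are libraries and bars are means of the log values. Esr1, Greb1 and Tnfsf11 are lowest in the tumor groups, Prlr is highest in the 3 MG WT glands, and Nr3c1 varies least.

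Esr1, which encodes the receptor for estradiol, was low in the tumors, and its normalized counts passed the test in no comparison between glands. It read 2512, 3424 and 3598 normalized counts in MG WT, 2700, 3720, 3435 and 2751 in MG N, with 1808, 3481, 1962 and 3444 in MG NP. In tumors it read 239.7, 122.2, 854.3 and 325.6 in T N and 178.3, 107.4, 174 and 428.3 in T NP. The 3 gland groups overlapped each other, and the highest tumor stayed below the lowest gland. Esr1 fell 10.3-fold from MG N to T N (log2 fold change -3.37, SE 0.50, adjusted p = 8.55e-04) and 13.1-fold from MG NP to T NP (-3.71, SE 0.42, adjusted p = 1.59e-04). Between MG N and MG WT the difference was -0.01 (95% interval -0.40 to 0.39, adjusted p = 0.971), and between MG NP and MG WT it was -0.30 (-0.97 to 0.37, adjusted p = 0.422). Scaled instead per kilobase of exon to the same total in every library (TPM), the MG NP glands lay below MG WT without overlap, at 12.53 to 19.31 against 26.78 to 37.22, a difference that was not tested on that scale.

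The sequences just before the transcript starts are given for Esr1, for 3 genes downstream of the estrogen and progesterone receptors, and for Prlr, since these are the genes whose levels differed most between the groups. Each is the 250 bases upstream of a RefSeq start on GRCm38.p6, read 5′ to 3′ on the gene's own strand. Capitals mark matches to the searched motifs on either strand: the estrogen response element GGTCANNNTGACC, its single arm GGTCA, which also lies within that element, the STAT motif TTCNNNGAA, and TGTTC, an arm shared by the glucocorticoid and progesterone receptor elements. Where a gene had more than 1 window, only 1 is printed. For Esr1 and Prlr it is the only window of the gene with the STAT motif, and the Greb1 window left out held 2 matches to GGTCA. The Esr1 window is the second of 2, at chr10:4709908-4710157 on the plus strand, inside the gene's longest annotated span. The others are Pgr at chr9:8899583-8899832 on the plus strand, Greb1 at chr12:16800887-16801136 on the minus strand, Tnfsf11 at chr14:78308044-78308293 on the minus strand, and the second Prlr window at chr15:10223656-10223905 on the plus strand.
Esr1: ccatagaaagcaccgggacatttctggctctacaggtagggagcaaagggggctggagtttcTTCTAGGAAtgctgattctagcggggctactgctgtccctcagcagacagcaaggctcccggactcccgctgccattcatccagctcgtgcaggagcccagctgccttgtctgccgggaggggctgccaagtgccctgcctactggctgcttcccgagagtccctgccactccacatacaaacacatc
Pgr: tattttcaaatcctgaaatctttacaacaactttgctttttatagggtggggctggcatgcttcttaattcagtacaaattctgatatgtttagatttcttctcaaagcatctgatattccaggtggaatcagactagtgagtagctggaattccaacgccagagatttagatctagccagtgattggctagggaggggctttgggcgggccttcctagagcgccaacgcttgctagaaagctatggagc
Greb1: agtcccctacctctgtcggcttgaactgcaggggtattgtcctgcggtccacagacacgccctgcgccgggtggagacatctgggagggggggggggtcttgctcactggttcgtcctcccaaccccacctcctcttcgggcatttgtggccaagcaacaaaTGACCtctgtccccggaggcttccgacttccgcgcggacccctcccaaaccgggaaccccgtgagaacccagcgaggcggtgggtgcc
Tnfsf11: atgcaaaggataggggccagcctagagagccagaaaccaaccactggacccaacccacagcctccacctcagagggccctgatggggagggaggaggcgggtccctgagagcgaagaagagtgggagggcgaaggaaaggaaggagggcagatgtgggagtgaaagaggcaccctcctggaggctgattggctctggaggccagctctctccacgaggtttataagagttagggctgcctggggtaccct
Prlr: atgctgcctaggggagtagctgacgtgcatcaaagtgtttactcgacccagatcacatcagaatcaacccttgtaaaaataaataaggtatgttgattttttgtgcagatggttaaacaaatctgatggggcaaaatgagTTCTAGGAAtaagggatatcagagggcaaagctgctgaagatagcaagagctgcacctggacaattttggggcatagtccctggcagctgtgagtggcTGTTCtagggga
In all, 13 windows of 7 of the 8 genes were searched, against a background of 32851 windows of the same length. Windows on the chromosome that carries Nr3c1 were left out of both the search and the background. Nr3c1 therefore had no window in the set used, and the background does not cover every gene of the genome. The shares of all windows below refer to this background. None of the 13 held the full estrogen response element, which 0.0639% of all windows held. Its arm GGTCA lay in 5 of the 13 windows, of Greb1, Stat5a and Stat5b, against 35.2% of all windows. The STAT motif lay in 2 of the 13, those printed for Esr1 and Prlr, against 7.02% of all windows. In both the matching letters were TTCTAGGAA, which 0.347% of all windows held. That string was taken from these same 2 windows after the search, so that its share is no test of it. TGTTC lay in 2 of the 13 windows, of Esr1 and Prlr, against 36.2% of all windows. These are letter matches in short windows and no record of binding.

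Pgr encodes the progesterone receptor, itself an estrogen target. It read 8508, 3567 and 8943 normalized counts in MG WT, 1207, 536.7, 714.7 and 786.8 in MG N, with 391, 1425, 258.9 and 162.7 in MG NP. In tumors the libraries spread widely, at 286.3, 4.215, 12.12 and 1.167 in T N and 22.42, 9.759, 514.4 and 270.9 in T NP. Every MG WT gland lay above every gland of the other genotypes, and T N replicate 1 and T NP replicates 3 and 4 lay far above the remaining tumors. Pgr was 8.32-fold lower in MG N than in MG WT (log2 fold change -3.06, SE 0.37, adjusted p = 2.38e-04) and 16.5-fold lower in MG NP than in MG WT (-4.04, SE 0.72, adjusted p = 0.00394; -4.66 without MG NP replicate 2). From MG N to T N it fell 54.2-fold (-5.76, SE 1.30, adjusted p = 0.00619), although edgeR on the recovered reads gave -3.41 with an adjusted p of 0.0595. T N replicates 1 and 4 moved that value most, to -7.20 without the first and -4.85 without the second. From MG NP to T NP the difference was -2.35 (95% interval -5.21 to 0.51, adjusted p = 0.142), with overlapping groups, and without T NP replicate 3 it was -3.26 (adjusted p = 0.0478).

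Greb1, an estrogen-induced cofactor of the estrogen receptor, was low throughout and lowest in tumors. It read 683.6, 214.3 and 475.4 normalized counts in MG WT, 467.4, 210.3, 133.4 and 122.6 in MG N, with 120.2, 235.5, 83.4 and 96.85 in MG NP. The tumors had 23.86, 7.375, 40.39 and 2.334 in T N and 7.848, 17.08, 32.47 and 7.491 in T NP. No tumor reached the lowest gland, while the gland groups overlapped. Greb1 fell 15.5-fold from MG N to T N (log2 fold change -3.95, SE 0.80, adjusted p = 0.00361; -3.30 without T N replicate 4) and 8.49-fold from MG NP to T NP (-3.09, SE 0.53, adjusted p = 0.00136). It was 3.33-fold lower in MG NP than in MG WT (-1.73, SE 0.49, adjusted p = 0.0231), a call lost without MG WT replicate 1 (-1.37, adjusted p = 0.09) and without MG WT replicate 3 (-1.63, adjusted p = 0.0817). In MG N the difference from MG WT was -1.03 (SE 0.53, adjusted p = 0.128), and it was called without MG WT replicate 2 (-1.50, adjusted p = 0.0496) and without MG N replicate 1 (-1.44, adjusted p = 0.0252). With the mean log2 level of the skeletal muscle genes as a covariate, the fall from MG NP to T NP was -2.055 (adjusted p = 0.0988) and was not called.

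Tnfsf11 encodes RANK ligand, the paracrine signal that progesterone induces in hormone-sensing cells. It varied more among glands than any of the other 7 genes, at 1908, 133.7 and 3658 normalized counts in MG WT, 50.95, 603.4, 764.4 and 121.5 in MG N, with 138.3, 74.22, 268.6 and 10.33 in MG NP. Its tumor counts were 3.408, 2.107, 19.19 and 3.501 in T N and 3.363, 10.98, 0 and 2.497 in T NP. All T N tumors lay below all MG N glands, whereas T NP replicate 2 lay just above MG NP replicate 4. Tnfsf11 fell 39.2-fold from MG N to T N (log2 fold change -5.29, SE 0.95, adjusted p = 0.00202) and 20.5-fold from MG NP to T NP (-4.35, SE 1.05, adjusted p = 0.00759). Single libraries moved both values, in N to -6.02 without MG N replicate 1 and -5.88 without T N replicate 3. In NP the value was -5.27 without MG NP replicate 4, -3.74 without MG NP replicate 3 and -3.73 without T NP replicate 3, and Tnfsf11 was still called in each. Against MG WT it was -2.07 in MG N (SE 1.29, adjusted p = 0.198) and -3.70 in MG NP (SE 1.39, adjusted p = 0.0614). Without MG WT replicate 2 both were called, at -3.50 (adjusted p = 0.0312) and -5.13 (adjusted p = 0.0229). With that gland kept, MG NP was also called lower by edgeR (-3.94, adjusted p = 0.0289) and DESeq2 (-3.94, adjusted p = 5.71e-04) on recovered reads, with all 5 groups in a single limma fit (adjusted p = 0.0226) and without MG NP replicate 3 (-4.32, adjusted p = 0.0429).

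Among the other genes of the RANK axis, the receptor rose in tumors and Rspo1 fell. Tnfrsf11a, the receptor RANK, read 1387 to 1555 normalized counts in MG WT, 555.1 to 1094 in MG N, 360.3 to 908.9 in MG NP, 2115 to 4494 in T N and 1961 to 3202 in T NP. Relative to MG WT it was lower both in MG N (log2 fold change -1.02, adjusted p = 0.00475) and MG NP (-1.29, adjusted p = 0.0107), and rose from gland to tumor in N (2.11, adjusted p = 4.71e-04) and in NP (2.16, adjusted p = 3.83e-04). Thus in normalized counts ligand and receptor moved in opposite directions between gland and tumor in both genotypes. The 9 luminal genes rose by a similar median, 2.57 in N and 2.64 in NP, and the receptor was not tested relative to the luminal score. In TPM the mean of Tnfrsf11a was 34.98 in MG WT, 12.67 in MG N, 9.09 in MG NP, 35.14 in T N and 27.61 in T NP. Rspo1, a secreted co-activator of Wnt signaling, fell with the ligand, at -5.90 in N (adjusted p = 0.00151) and -6.42 in NP (adjusted p = 5.72e-04). Tnfrsf11b, which encodes the decoy receptor osteoprotegerin, passed the test in none of these comparisons, and ranged from 65.9 to 1293 in T N. Of the 5 genes of the axis, all tested, 1 was called higher and 2 lower, the ligand itself among them, in each tumor comparison. Over all genes tested 12.8% were called higher and 22.3% lower in N, with 14.7% and 24% in NP.

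Prlr, the prolactin receptor gene, separated the wild-type glands from every other tissue. It read 49242, 53878 and 55475 normalized counts in MG WT, 6948, 4725, 6656 and 5947 in MG N, with 5591, 10958, 2994 and 3776 in MG NP. The T N tumors had 2569, 4779, 2678 and 5084, and the T NP tumors 2867, 2891, 3811 and 2611. The lowest MG WT gland was above the highest of the other 16 libraries, whereas glands and tumors of the neu mice overlapped. Prlr was 8.79-fold lower in MG N than in MG WT (log2 fold change -3.14, SE 0.16, adjusted p = 3.08e-06) and 10.3-fold lower in MG NP than in MG WT (-3.36, SE 0.41, adjusted p = 9.10e-04). From gland to tumor it differed by -0.74 in N (SE 0.26, adjusted p = 0.0406, under the 2-fold limit) and by -0.77 in NP (SE 0.37, adjusted p = 0.103). Its exons overlap those of the predicted gene Gm21973 on the same strand, which was listed at 0 in all 19 libraries.

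Stat5a and Stat5b, which relay the prolactin signal, are adjacent and nearly identical genes, so that reads may be divided between them with error. Exons of Stat5a also overlap those of Stat3 on the opposite strand, and the strand setting of the counting is not given in the sources used here. Stat5a read 5835, 2843 and 5840 normalized counts in MG WT, 2395, 2515, 2693 and 2158 in MG N, with 2102, 1953, 2959 and 2082 in MG NP. Its counts in tumors were 3491, 851.3, 3698 and 1332 in T N and 2991, 2650, 2250 and 3426 in T NP. MG WT replicate 2 lay near the MG N and MG NP glands, and T N replicates 2 and 4 were the lowest of all libraries. Stat5a was 2.05-fold lower in MG NP than in MG WT (log2 fold change -1.03, SE 0.29, adjusted p = 0.0221), a value at the 2-fold limit that was no longer called without MG WT replicate 1 or 3 or MG NP replicate 2 or 4. In MG N it was 1.89-fold lower than in MG WT (-0.92, SE 0.25, adjusted p = 0.0131), under the 2-fold limit. It passed that limit by edgeR on recovered reads (-1.005, adjusted p = 0.00783) and without MG WT replicate 2 (-1.26, adjusted p = 3.31e-04). Neither tumor comparison passed the test, at -0.31 in N (95% interval -1.33 to 0.70) and 0.32 in NP (-0.09 to 0.73).

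Stat5b was steadier. It read 4101, 3295 and 3913 normalized counts in MG WT, 2670, 2953, 2805 and 2734 in MG N, with 3413, 6592, 3337 and 4693 in MG NP. For the tumors the counts were 4165, 1659, 3931 and 2828 in T N and 3862, 3968, 3076 and 4588 in T NP. MG N lay below MG WT and below MG NP without overlap, and the highest MG NP value, in replicate 2, belonged to the gland with the most muscle RNA. The difference of MG N from MG WT was -0.43 (SE 0.11, adjusted p = 0.00938), under the 2-fold limit, and no other comparison of Stat5b had an adjusted p under 0.05.

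Nr3c1, the glucocorticoid receptor gene, had the smallest spread of the 8 in log2 normalized counts. It read 4052, 4961 and 4414 normalized counts in MG WT, 10169, 8720, 8223 and 7230 in MG N, with 6287, 8390, 5777 and 9146 in MG NP. In tumors it read 6503, 5502, 6084 and 6691 in T N and 5830, 5683, 5066 and 5087 in T NP. In normalized counts the 3 MG WT glands were the lowest libraries of the series for this gene, whereas in TPM, at 76.81 to 95.89, they lay above all 8 tumors, at 32.42 to 59.18. Nr3c1 was 1.91-fold higher in MG N than in MG WT (log2 fold change 0.93, SE 0.14, adjusted p = 7.05e-04) and 1.63-fold higher in MG NP (0.70, SE 0.19, adjusted p = 0.0207), both under the 2-fold limit. The MG N value reached 1.01 without MG WT replicate 2 or without MG N replicate 4, and then was called. In TPM the difference in MG NP had the other sign, with means of 84.32 in MG WT and 79.79 in MG NP and overlapping ranges, while MG N, at 100.1 to 128.4, stayed above MG WT. It was -0.46 from MG N to T N (SE 0.14, adjusted p = 0.0241) and -0.43 from MG NP to T NP (SE 0.17, adjusted p = 0.059).

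Counted over the 8 genes, the comparisons with wild-type glands called 2 lower in MG N, where 17.9% of all genes tested were called lower, and 4 lower in MG NP, where 16.2% were. None was called higher, against 19.1% and 16.4% of all genes tested. In MG N 5 of the 8 genes did not overlap with MG WT, against 61.3% of all genes tested, and in MG NP 3 of 8, against 54.4%. The median log2 fold change of the 8 was -0.98 in MG N and -1.38 in MG NP, against 0.02 over all genes in each. The 3 wild-type glands serve as controls in both. From gland to tumor, 4 of the 8 were called lower in N, where 22.3% of all genes tested were, and 3 of 8 in NP, where 24% were, again with none higher, against 12.8% and 14.7% of all genes. The groups did not overlap for 5 of 8 genes in N, against 49.2% of all genes, and for 2 of 8 in NP, against 52.6%. The median of the 8 was -2.06 in N and -1.56 in NP, against -0.05 and -0.07 over all genes.

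**Figure D2:**
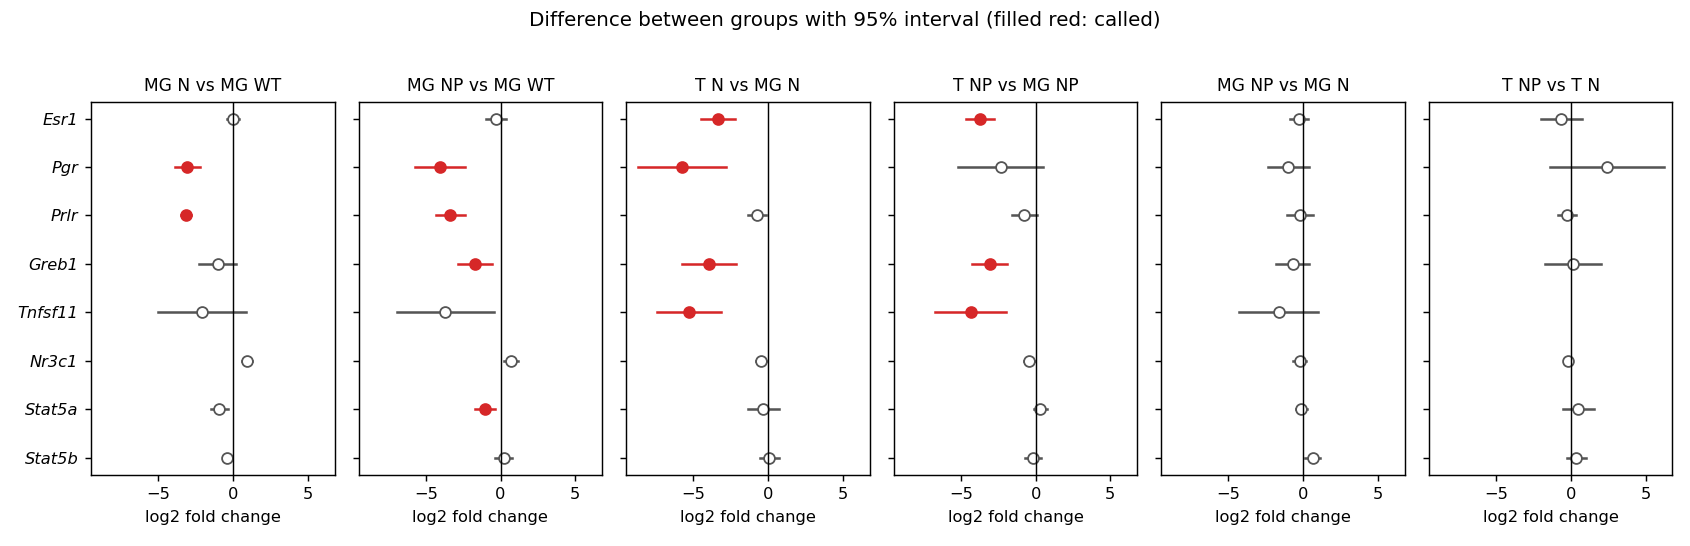
Log2 fold change of (normalized count + 1) with its 95% interval for the 8 genes in 6 comparisons; filled red points were called (adjusted p under 0.05 and at least 2-fold). Red points lie left of 0 in all 4 comparisons that have any, and the 2 comparisons of NP with N have none.

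NP was set against N within each tissue, in comparisons that do not isolate the mutation. In MG N, 3 mice lacked Cre, and in T N all 4 lacked the p53 allele, so that NP differed from them in these too. The N glands and N tumors also differ in genotype, which bears on the test of dependence on genotype below. Between MG NP and MG N, limma called 0 of the 8 genes, and 0% of all genes tested; 1 of the 8 had an unadjusted p under 0.05, against 10.5% of all genes, and edgeR and DESeq2 on recovered reads also called 0 of the 8. The number at an unadjusted p under 0.05 was 3 without MG NP replicate 2, 3 with the muscle score as a covariate and 4 without both muscle-rich glands, with 0 called in each. The gene counted with all libraries was Stat5b, 1.55-fold higher in MG NP with no overlap (log2 fold change 0.64, SE 0.21, adjusted p = 0.361), where 6.21% of all genes tested did not overlap. Between T NP and T N, 0 of the 7 genes tested were called, with 0.0421% of all genes called, and 0 had an unadjusted p under 0.05, against 7.27% of all genes; edgeR and DESeq2 called 0. The intervals were wide for the low genes: Pgr was 2.42 higher in T NP (95% interval -1.41 to 6.26) and Greb1 differed by 0.17 (-1.69 to 2.02). For Esr1 the difference was -0.63 (-1.996 to 0.74) and for Prlr -0.25 (-0.83 to 0.33). Tnfsf11, at 0 to 19.19 normalized counts in tumors, was under the count minimum and was not tested between them. A direct test of whether the gland-to-tumor difference depended on genotype called 0 of the 8 by limma, edgeR and DESeq2, and 0% of all genes, with 0 of the 8 at an unadjusted p under 0.05, against 7.93% of all genes; for Pgr, called in N and not in NP, the difference was 3.41 (-0.74 to 7.56, adjusted p = 0.709).

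Since the luminal score differed between groups, each gene was also expressed relative to it, as the log2 value minus the luminal score of the same library. Prlr then stood at 2.63 to 2.80 in MG WT, 1.69 to 2.48 in MG N and 0.62 to 2.62 in MG NP, against -0.66 to 0.21 in T N and at most -0.65 in T NP. On this scale the neu glands lay below the wild-type glands, although MG NP replicate 4, at 2.621, nearly equalled MG WT replicate 3, at 2.625. All 8 tumors lay below all glands. Esr1 stood at -1.57 to -1.18 in MG WT, 0.73 to 1.88 in MG N, 0.01 to 2.49 in MG NP, -5.73 to -2.31 in T N and -5.74 to -3.46 in T NP. The tumors remained the lowest for Esr1, whereas the neu glands lay above the wild-type glands. Pgr stood at -1.12 to 0.19 in MG WT and -1.53 to -0.37 in MG N, which overlapped, and at -2.90 to -0.53 in MG NP. The tumors lay below all glands for Pgr too, at -10.98 to -3.665 in T N and -9.08 to -3.68 in T NP. Subtracting the score moves all genes: in the same limma test 88.3% of genes were then called higher in MG N than in MG WT and 0.757% lower, against the 19.1% and 17.9% found without it, and the median of all genes was 2.58. In MG NP against MG WT 84.9% were called higher and 0.535% lower, against 16.4% and 16.2%, around a median of 2.54. Beside medians of that size, Prlr differed by -0.58 in MG N (adjusted p = 0.122), against -0.85 in MG NP (adjusted p = 0.166), and neither was called, while Pgr differed by -0.50 (adjusted p = 0.203) in MG N and by -1.53 (adjusted p = 0.0198), called lower, in MG NP. For the tumors 77.5% of genes were called lower in N and 79.1% in NP, against 22.3% and 24%, around medians of -1.80 and -1.996. All 8 genes were then called lower in both, the least of them Stat5b in N at -1.66 and Stat5a in NP at -1.61, and the lowest Pgr in N at -7.505 and Tnfsf11 in NP at -6.28. Esr1 stood at -5.12 in N and -5.63 in NP.

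**Figure D3:**
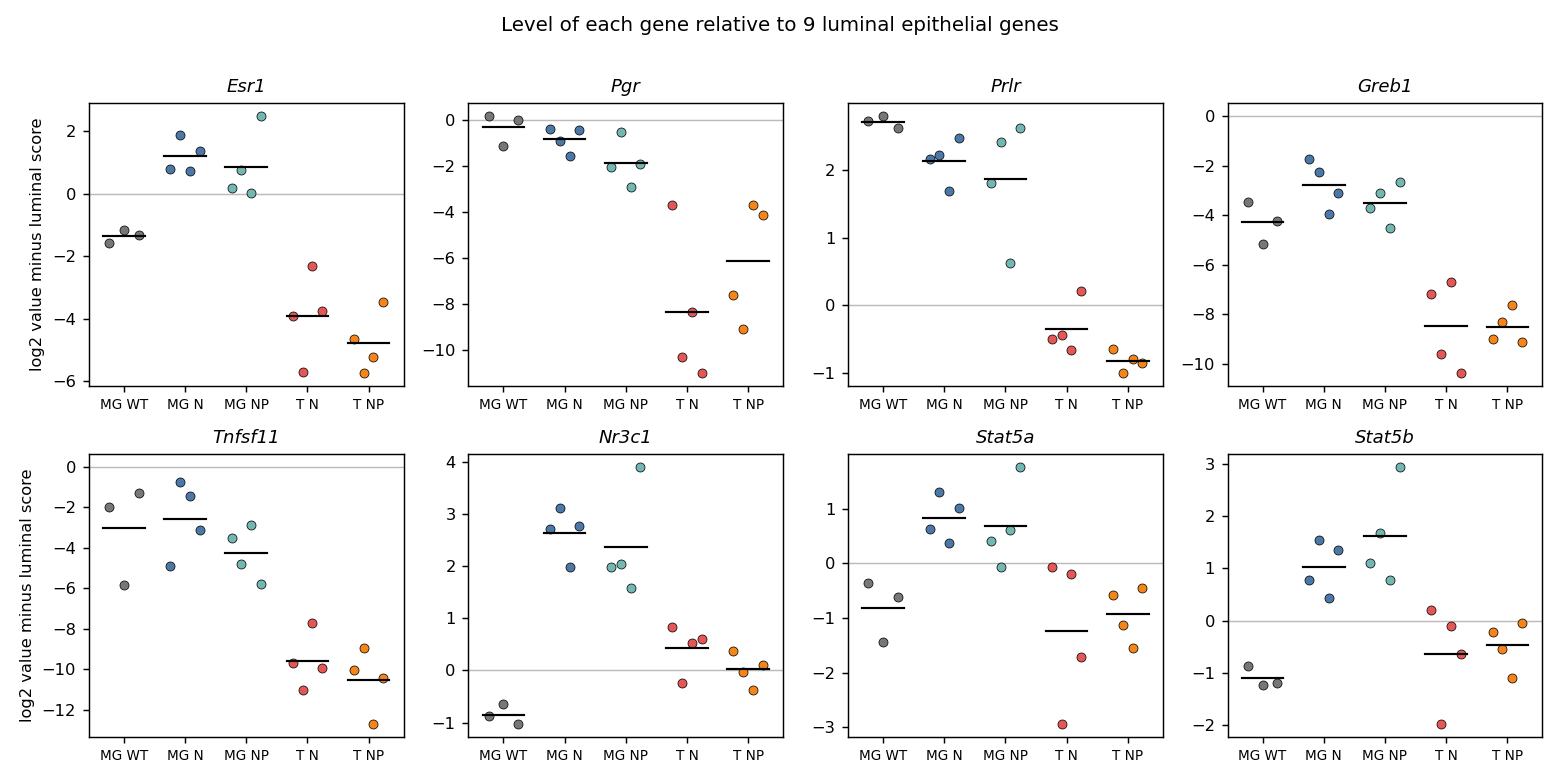
Log2 (normalized count + 1) of each gene minus the mean log2 level of 9 luminal epithelial genes in the same library, by group; points are libraries and bars are means. For Esr1, Pgr, Prlr, Greb1 and Tnfsf11 the 8 tumors lie below the glands of every genotype.

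Levels can be compared between genes per length, as recovered reads per kilobase of exon scaled to the same total in every library (TPM). In MG WT the order of mean TPM was Prlr (498.2), Tnfsf11 (120.6), Pgr (117.7), Stat5b (98.31), Stat5a (97.59), Nr3c1 (84.32), Esr1 (33.6) and Greb1 (6.883). Prlr stood clear of the rest, and the ranges of neighbours from Tnfsf11 to Nr3c1 overlapped. In MG N the order was Nr3c1 (116.2), Stat5b (52.83), Prlr (41.04), Stat5a (35.83), Esr1 (24.33), Tnfsf11 (18.73), Pgr (9.711) and Greb1 (2.457). Nr3c1 also came top in MG NP at 79.79 TPM, in T N at 52.61 and in T NP at 42.49, where its range overlapped that of Stat5b. Prlr held 31.3 TPM in MG NP, 16.03 in T N and 11.71 in T NP. In the tumors Esr1 came to 1.897 TPM in T N and 0.9257 in T NP, and Tnfsf11 to 0.2166 and 0.1181. The scales also differed in sign for Stat5b between MG NP and MG WT, with mean TPM of 66.78 and 98.31, and for Stat5a between T NP and MG NP, with 23.76 and 27.03; neither Stat5b nor Stat5a was called in that comparison.

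The wider lists of pathway genes are given beside the shares over all genes tested, which were 17.9% lower and 19.1% higher in MG N against MG WT, 16.2% and 16.4% in MG NP against MG WT, 22.3% and 12.8% in T N against MG N, and 24% and 14.7% in T NP against MG NP. Of 20 estrogen and progesterone targets and hormone-sensing luminal genes 17 were tested, and 11 were lower and 1 higher in MG N than in MG WT, against 11 lower and 0 higher in MG NP. The list holds Esr1, Pgr, Greb1 and Tnfsf11, so that its counts repeat their calls. Their median log2 fold change was -2.10 in MG N and -2.48 in MG NP. Foxa1, the pioneer factor that opens chromatin for the estrogen receptor, led the falls, at -4.45 in MG N (adjusted p = 3.48e-05), against -4.24 in MG NP (adjusted p = 2.79e-04). Gata3, a luminal fate factor, differed by -3.73 in MG N (adjusted p = 1.03e-05), against -3.40 in MG NP (adjusted p = 6.64e-04). All 9 luminal epithelial genes were also lower in both. From gland to tumor 10 of the 17 were lower in N and 10 in NP, with 2 and 5 higher and medians of -3.26 and -3.09. Here Id4, a helix-loop-helix regulator, fell most, at -6.30 in N and -4.93 in NP, while Tbx3, a T-box repressor, fell at -4.57 and -4.50, and Foxa1 at -4.60 and -4.43. Basal and myoepithelial genes fell as well, with 8 of 8 called lower in N and 7 of 8 in NP. Their part in the Id4 difference was not tested. Ccnd1, the cyclin D1 gene, went the other way, at 2.72 in N (adjusted p = 7.96e-04) and 2.95 in NP (adjusted p = 4.66e-04), as did Xbp1, a secretory stress factor, at 1.75 and 2.46. Among the luminal epithelial genes themselves, 7 of 9 in N and 8 of 9 in NP were higher in tumors, and 1 was lower in each.

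Among 10 steroid receptor family genes, Esrrb, an orphan receptor related to the estrogen receptors, was lower in the neu glands than in MG WT and lower again in tumors, at -2.71 in N and -6.19 in NP. Of the family 3 of the 9 tested were lower in MG N than in MG WT, and 2 of 10 lower and 1 higher in MG NP, the last near the 16.2% lower over all genes. Pgr is 1 of the lower genes in both, and the list also holds Esr1 and Nr3c1. The gene called higher was Esr2, the estrogen receptor beta gene, at 2.72 (adjusted p = 0.00621), from 0 to 3.417 normalized counts in MG WT to 10.83 to 18.56 in MG NP. The tumor comparisons called 4 lower and 1 higher of 10 in N, and 3 lower and 0 higher in NP.

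Of 14 prolactin receptor signaling genes, 6 were lower and 2 higher in MG N than in MG WT, and 6 lower and 1 higher in MG NP, against 17.9% and 16.2% lower over all genes. Prlr is among the lower genes in both and Stat5a in MG NP. Ghr, the growth hormone receptor gene and a relative of Prlr, ran opposite to it, with 1109 to 1578 normalized counts in MG WT, 17915 to 26201 in MG N and 8650 to 18921 in MG NP. It rose by 4.07 in MG N (adjusted p = 1.80e-06), against 3.32 in MG NP (adjusted p = 2.39e-04), and fell from gland to tumor, at -3.39 in N and -2.57 in NP. White adipocyte genes moved with it in every one of these comparisons, with 9 of 9 higher in the neu glands than in MG WT and 9 of 9 lower in tumors; their part in the Ghr differences was not tested. Socs3, a feedback inhibitor of JAK signaling, differed most, from 24061 to 30711 in MG WT to 328.6 to 391.9 in MG N (log2 fold change -6.20, adjusted p = 1.07e-07) and 244.1 to 648.8 in MG NP (-5.87, adjusted p = 5.99e-05). Jak2, the kinase of the receptor, was within 2-fold in all 4 comparisons, at -0.33 and -0.27 against MG WT and -0.26 and -0.81 in tumors. The tumor comparisons called 1 higher and 1 lower of the 14 in N, and 2 and 2 in NP, no more than the shares of 12.8% and 22.3%, and of 14.7% and 24%, over all genes. Socs2, a STAT5-induced inhibitor, rose in tumors by 3.65 in N (adjusted p = 1.63e-04) and 3.84 in NP (adjusted p = 3.17e-05), from 550 to 1732 and 495.9 to 1283 in the glands to 6801 to 14884 and 8443 to 15670.

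The STAT5 target genes moved both ways. Of the 13, 12 were tested in MG N, with 4 higher and 3 lower than MG WT, where 19.1% and 17.9% of all genes were. In MG NP 13 were tested, with 5 higher and 2 lower, where 16.4% and 16.2% of all genes were. Csn1s1, the alpha-S1 casein gene, was 4.83 higher in MG N than in MG WT (adjusted p = 0.012), although its 4 glands ranged from 1332 to 65332 normalized counts. Elf5, a STAT5-driven alveolar factor, was lower both in MG N (-2.08, adjusted p = 0.00398) and MG NP (-1.62, adjusted p = 0.0323) and higher in tumors (2.11 in N, adjusted p = 0.00307, and 2.003 in NP, adjusted p = 0.00426). In tumors 4 of 12 were higher and 1 lower in N, and 6 of 13 higher and 1 lower in NP. Over all genes tested 12.8% were higher and 22.3% lower in N, with 14.7% and 24% in NP. Csn3, the kappa casein gene, rose by 5.54 in N (adjusted p = 0.00246) and 5.67 in NP (adjusted p = 5.05e-05), reaching 81334 to 345119 normalized counts in T N and 189947 to 316736 in T NP. Igf1, which growth hormone induces through STAT5, fell in tumors, at -4.67 in N and -3.88 in NP.

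**Figure D4:**
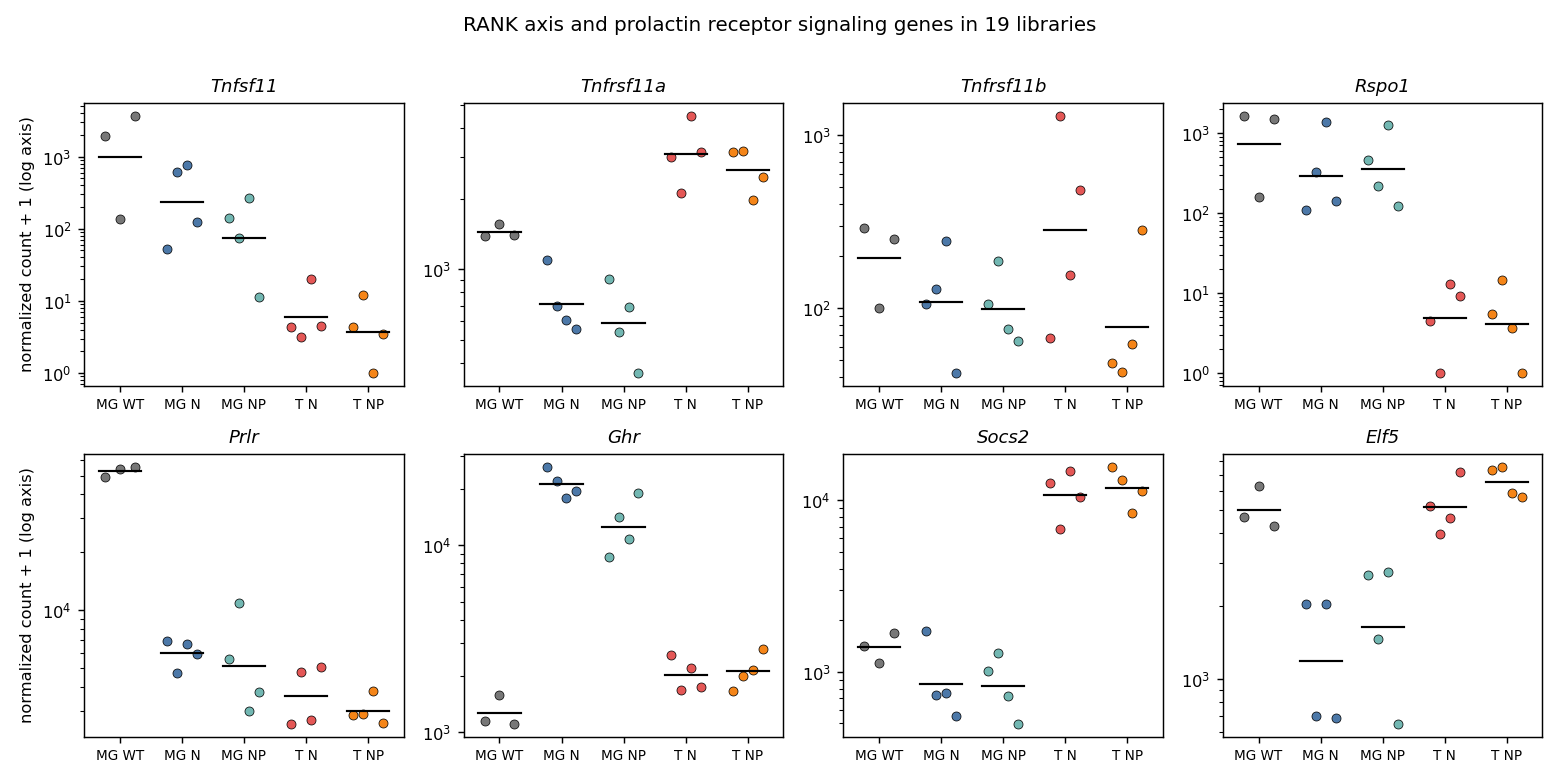
Normalized count + 1 (log axis) of Tnfsf11, Tnfrsf11a, Tnfrsf11b, Rspo1, Prlr, Ghr, Socs2 and Elf5 in each of the 19 libraries, by group; points are libraries and bars are means of the log values. Tnfrsf11a and Socs2 are highest in tumors, where Tnfsf11 and Rspo1 are lowest, and Ghr is highest in MG N and MG NP.

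Of the glucocorticoid receptor's targets, more were lower than higher in the neu glands. Of 14 targets, 9 were lower and 0 higher in MG N than in MG WT, and 8 lower and 1 higher in MG NP, against 17.9% and 16.2% lower over all genes, while Nr3c1 itself was called in neither. Dusp1, a phosphatase of MAP kinases, stood at -3.68 in MG N (adjusted p = 6.25e-05) against -3.58 in MG NP (adjusted p = 2.69e-04), and Mt2, a metallothionein, at -3.96 and -3.14. Tsc22d3, which encodes GILZ, was the 1 higher gene, at 1.81 in MG NP (adjusted p = 0.00466). From gland to tumor 5 of 14 were lower in each genotype, and 0 in N and 3 in NP higher. Zbtb16, a zinc finger factor, fell, at -5.30 in N (adjusted p = 9.78e-04) and -3.45 in NP (adjusted p = 3.62e-04), as did Pdk4, a metabolic kinase, at -4.55 and -7.19. Among steroid enzymes Hsd11b1, which regenerates active glucocorticoid, rose by 3.61 in MG N (adjusted p = 3.99e-05), against 2.39 in MG NP (adjusted p = 8.39e-04) and fell in tumors, at -5.90 and -4.56. Of the 9 enzymes, 5 were tested in each gland comparison, with 3 higher and 0 lower, and the tumor comparisons called 1 higher and 2 lower, of 5 tested in N and 4 in NP. Of 14 receptor coregulators and chaperones, 3 were lower and 0 higher in each gland comparison, a share near those of 17.9% and 16.2% over all genes. In tumors Nrip1, a ligand-dependent corepressor, was the 1 lower gene of the 14 in each genotype, at -1.60 and -1.11, and Fkbp4, a receptor chaperone, was higher in N at 1.29. In none of these 8 lists was a gene called by limma between MG NP and MG N, between T NP and T N, or for the dependence of the tumor difference on genotype.

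The genes most alike in pattern were found by the root mean square difference of log2 values, each centered on its mean over the 19 libraries, among 18572 genes. Nearest to Esr1 were Adam22 (0.48), Sdk1 (0.51) and Dnm1 (0.51), against a spread of 1.89 for Esr1 itself. For Pgr they were Gm16485 (0.85), Cyp3a57 (1.35) and Pitpnm3 (1.48), against a spread of 3.37. Gm16485 lies 3179 bases beyond the end of Pgr on the same strand, at chr9:8971791-8975773. Nearest to Prlr were Tcf7l2 (0.49), Gm38111 (0.50) and Naf1 (0.50), against a spread of 1.43, and nearest to Greb1 were Pi15 (0.68), Npy1r (0.69) and Gm43426 (0.70), against 2.19. For Tnfsf11 they were Defb1 (1.197), Gm266 (1.28) and Rspo1 (1.33), against 3.37. Rspo1 is also in the RANK axis list, which was chosen with earlier results of these data known. Nr3c1 lay nearest to Mtmr6 (0.15), Pank2 (0.17) and Ncoa4 (0.19), against 0.36. Stat5a lay nearest to Btbd19 (0.35), Rraga (0.38) and Myo6 (0.38), against 0.63, and Stat5b to Gid4 (0.24), Slc44a2 (0.26) and Dpp8 (0.26), against 0.41.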

How the data were processed

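RNA of the 19 tissues was sequenced by the authors, whose processing notes name TopHat2 (2.1.1), Bowtie2 and GRCm38. The counting tool and strand setting are not given in the sources used here. The labels describe a total RNA library, whereas the methods of the study describe an mRNA kit. The authors deposited DESeq2-normalized counts (a signal, not raw counts) for 46078 genes. Whole reads were recovered from the steps between values (tolerance 0.05 reads, 100% of values whole in every library), which gives the depths. Names came from GENCODE M21 (98.16% of identifiers; 849 unmatched), and promoter sequences from RefSeq.

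Genes with at least 10 normalized counts in as many libraries as the smaller group were tested on log2(value + 1) with limma (3.58.1, trend, 2 groups per fit, and 4 for the dependence on genotype; R 4.3.3), adjusted by Benjamini-Hochberg over all genes tested. edgeR (4.0.16, quasi-likelihood) and DESeq2 (1.42.0) on recovered reads, other pseudocounts, filters and scalings, covariates, and fits without each library were alternatives. A run of the test on simulated counts covered only MG N against MG WT and T N against MG N. It drew each gene independently, without differences in tissue mixture, and its outcome is not reported here. The p-values set the difference between groups against the spread between these libraries.

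The members and gene lists were chosen with earlier results of these data known. Named list genes were those past the threshold, at most the 3 largest rises and falls of each list per comparison, plus ligands, receptors, decoys, kinases and paralogs of the receptors. The tumor values of Elf5 fall outside this rule and were chosen after they were seen. Some list genes are not reported here. Likeness of pattern used the 3 nearest genes. Replicate numbers do not pair animals: same-numbered libraries correlated at -0.26 to 0.30 around their group means. No 2 replicates of a group were duplicates of each other. The most alike pair was T NP replicates 1 and 2, with a chi-square per gene between their reads of 39.2, against 53.9 to 571 for the other pairs within groups.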

Additional observations from a re-analysis of the deposited data

Results flagged for a closer look

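In 32 sets of 4 libraries (each of the 8 genes in each group of 4), a library far from the other 3 was looked for. Its gap to its neighbour, as a share of the group's range in normalized counts, had to exceed Dixon's 95% critical value. Chance alone gives that in about 1 in 20 sets where values are normally distributed, which was not checked for these counts. The log2 values used in the tests were not searched. There were 3 such libraries. Pgr in T N replicate 1 read 286.3 normalized counts, and the gap to the next tumor was 0.962 of the range; the other 3 read 1.167 to 12.12. Tnfsf11 in T N replicate 3 read 19.19 (0.918 of the range), with the other 3 at 2.107 to 3.501. Stat5a in MG NP replicate 3 read 2959 (0.852 of the range), with the other 3 at 1953 to 2102.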

How the results depend on the processing

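Without a library each, the count of called genes ranged from 2 to 6 in MG N against MG WT (main 2; 6 without MG WT replicate 2), from 2 to 5 in MG NP against MG WT (main 4; 2 without MG WT replicate 1 or 3), from 4 to 4 in T N against MG N, from 3 to 4 in T NP against MG NP, and stayed at 0 elsewhere. By edgeR and by DESeq2 on recovered reads the counts were 3 and 2 in MG N against MG WT (edgeR added Stat5a), 5 and 5 in MG NP against MG WT (Tnfsf11 added), 3 and 4 in T N and 3 and 3 in T NP. Other settings changed the count to 5 with no fold limit and 1 with all 5 groups in a single fit (MG N against MG WT, where Pgr then had an adjusted p of 0.0817; in MG NP that fit called Tnfsf11 and no longer Greb1, at 0.0664), to 5 with the luminal score subtracted, and to 8 in both tumor comparisons with it. With the muscle score as a covariate MG NP against MG WT called 1, and Greb1 was no longer called in T NP against MG NP (-2.055, adjusted p = 0.0988). The muscle score did not overlap between the groups of either comparison. The block on replicate number gave 3, 3, 4 and 3 calls in the 4 comparisons that had any; the numbers do not pair the libraries. Over all genes, DESeq2 called 404 higher and 115 lower between MG NP and MG N, 51 and 34 between tumors, and 50 and 277 for the dependence on genotype, against 0, 7 and 0 in all by limma; none was among the 8. Without MG NP replicate 3 limma called 297 higher and 21 lower between the glands, also none of the 8. With T NP replicates 1 and 2 averaged into 1 library, limma called 0 of all genes between tumors and 0 for the dependence on genotype. In that setting 4 of the 8 genes had an unadjusted p under 0.05 in T NP against MG NP. Between tumors 0 of the 7 tested did, and 1 of the 8 did for the dependence on genotype. With no filter on low values the median of all genes was -0.24 in T N and -0.27 in T NP.

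Signs turned as follows; the cause was not tested. With the luminal score subtracted: Esr1 2.55, Greb1 1.52, Tnfsf11 0.48, Stat5a 1.64 and Stat5b 2.13 in MG N against MG WT; Esr1 2.22, Greb1 0.78 and Stat5a 1.48 in MG NP against MG WT; Stat5b -1.66 in T N; Stat5a -1.61 in T NP; Greb1 -0.053 between tumors; Nr3c1 -0.14 for the dependence on genotype. With the block, Esr1 was 0.053 in MG N. With the muscle covariate: Tnfsf11 0.89, Nr3c1 -0.17 and Stat5b -0.90 in MG NP against MG WT; Pgr 0.27, Prlr 0.10, Stat5a -0.10 and Stat5b 0.31 in T NP against MG NP; Stat5a 0.077 between MG NP and MG N; Esr1 0.56, Prlr 0.067 and Stat5b 0.21 for the dependence on genotype. Between tumors Greb1 was -0.21 by edgeR and by DESeq2. Without both muscle-rich glands, MG NP replicates 2 and 4 (chosen after seeing the data), 3 genes were called against MG WT, 3 from gland to tumor and 0 against MG N, and Stat5b was -0.15 against MG WT and 0.18 from gland to tumor, and Stat5a 0.036 between glands. Without single libraries, signs turned for Esr1 in MG N (-0.17 to 0.09), in T N for Stat5a (-0.62 to 0.086) and Stat5b (-0.078 to 0.365), for Stat5b in T NP (-0.30 to 0.026), Prlr between glands (-0.59 to 0.032), Greb1 between tumors (-0.49 to 0.72), and for the dependence on genotype in Esr1 (-0.77 to 0.16), Prlr (-0.29 to 0.34) and Nr3c1 (-0.073 to 0.15). None of the results that turned without a single library was called as reported.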
